A study of Mus musculus with 109 samples.

Results

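The retinas described here came from wild-type (WT) eyes that received only the vehicle, phosphate buffered saline (PBS), and were collected either 14 days or 2 days after that injection. They were chosen by their labels: genotype WT, batch 1, treatment PBS, and time 14 (7 retinas) or 2 (31 retinas), which gives 38 of the 109 retinas of the series. The comparison asks which genes settled between day 2 and day 14 after an injection that carried no cytokine. All 38 retinas came from C57BL/6J mice, 2 to 4 months old per the series description, and each eye received 2 μL of sterile PBS into the vitreous. The day 14 retinas came from 6 mice (3 female and 4 male retinas) and the day 2 retinas from 31 mice (15 female, 16 male). The other eye mattered for the layout. Among the day 14 retinas it received tumor necrosis factor (TNF) in 4 cases and PBS in 2 cases, which are the left and right eye of 1 mouse (replicates 2 and 3), and in 1 case no retina of it was analysed here. Among the day 2 retinas it received TNF in 8, interleukin 1 alpha (IL1A) in 7, IL1A+TNF in 8, and had no retina here in 8.

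Several features limit what the groups can model. Every retina was injected, and no uninjected retina was analysed here, so day 2 was compared with day 14 and not with an intact eye. Per the study's methods the conjunctiva was cleared, the sclera was pierced and vitreous was drained before the injection, and eyes with visible lens damage were to be left out. The extraction text of the labels names a harvest at 2 days for every sample, while the time label gives 14 or 35 for some, and the time label was used. Other eyes known to have received IL1A or IL1A+TNF occurred only among the day 2 retinas. The day and the treatment of the other eye therefore cannot be fully told apart. Injection and extraction dates are not given in the sources used here. Mouse numbers of day 14 lie at the low end of those of day 2, so day and mouse cohort cannot be told apart. The comparison was therefore repeated with the 4 day 2 retinas of the lowest mouse numbers, replicates 1 to 4, called number-matched below. For replicates 1 to 3 these numbers lie within the range of days 14 and 35, and for replicate 4, which is also the retina with the most lens transcripts, the number is the next after that range.

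As background, the retina answers a mechanical or chemical insult through its glia. Müller glia and astrocytes raise intermediate filaments, acute-phase proteins and signals of the gp130 and STAT3 pathway, which is known to act in photoreceptor protection. Microglia, the resident macrophages, proliferate and raise complement and phagocytic genes, interferon and chemokine programs are switched on, and leukocytes can enter through activated vessels. Homeostatic functions of Müller glia, such as glutamine synthesis and the handling of retinoids, are often reduced in the same state.

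Total gene counts were 30095033 to 40090639 in the day 14 retinas (median 34677727) and 30014757 to 43039063 in the day 2 retinas (median 39328089). Levels are given as CPM (counts per 1000000 counts of the library), and they are compared between retinas for 1 gene and never between genes. The retina label held: markers of rods, cones, bipolar, amacrine and ganglion cells were present in every retina, with summed rod genes of 68598 to 78466 CPM at day 14 and 51220 to 72719 CPM at day 2. Some day 2 retinas stood apart in genes of neighbouring tissue or blood. Summed lens genes were at 5338, 3983 and 1168 CPM in replicates 4, 24 and 16 and at 217 CPM or less in the other day 2 retinas, against 19.9 to 81.4 CPM at day 14. Summed neutrophil genes reached 176 and 131 CPM in day 2 replicates 5 and 26, against 16.5 to 24.98 CPM at day 14. Leaving out the 3 retinas with lens genes gave 3679 called genes and leaving out the 2 with neutrophil genes gave 3272, both chosen after the data were seen, against 3635 with all 38.

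Genes of glial reactivity, immunity and proliferation were lower at day 14 than at day 2, and most rod genes, with some genes of cones, inner retinal neurons and Müller glia, were slightly higher. With a linear model on weighted log2 CPM (limma voom with a term for sex) and a false discovery rate (FDR) below 0.05, 3635 of 19153 genes were called. Of these, 1886 were lower at day 14 (9.85% of the genes tested) and 1749 were higher (9.13%). The falls were the larger: 493 called genes fell by at least 1 on the log2 scale and 37 rose by as much, and the median called fold change was -0.49 for the genes that fell and 0.21 for those that rose. The median over all genes tested was 0.01. When libraries were scaled by their totals alone, 2492 genes were lower and 1051 higher, so that the share of higher genes among those called went from 48.1% to 29.7%, and small rises depend on the scaling. At an unadjusted p below 0.05, 6062 genes were past the threshold.

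The groups separated fully for few genes. Every day 14 retina lay below every day 2 retina for 158 genes (0.825% of those tested), and every day 14 retina lay above every day 2 retina for 15 genes (0.0783%). In whole retina, fewer cells of a type and less RNA per cell cannot be told apart, which holds for every cell type gene below. 

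With only the 4 number-matched day 2 retinas, 707 genes were called, 564 lower (3.07% of those tested) and 143 higher (0.779%), and without replicate 4, which was chosen after the data were seen, 902. Of the 3635 genes, 3526 could be tested with the 4, and 670 of them were called again. The same sign was found for 99.6% of the 3526. That agreement is partly built in, since the first fit holds all retinas of the second. Of the 148 called genes named by rule, 144 could be tested, 83 were called in the same direction, 61 were not called, and 2 of these had the opposite sign. Of the lists, pan-reactive glia were lower for 9 of 13 genes tested, homeostatic microglia for 8 of 12, complement for 13 of 19, leukocyte adhesion for 7 of 10 and extracellular matrix for 12 of 26. Acute injury genes were lower for 12 of 20, interferon-stimulated genes for 11 of 25, cell cycle genes for 12 of 30 and neutrophil genes for 4 of 6. Lower counts were those of A2 genes (1 of 11), antigen presentation genes (2 of 15), chemokines and cytokines (3 of 13) and chaperones (0 of 20 by limma, 6 at an unadjusted p below 0.05). Several folds were also smaller there. Gfap was at -0.85, Stat3 at -0.74, Cebpd at -0.97 and Atf3 at -0.41, all called, while Edn2 was at -0.51 (FDR 0.409), Fgf2 at -0.40 (FDR 0.245) and Isg15 at -0.39 (FDR 0.211, limma). Serpina3n (-3.47), Lcn2 (-3.62), C3 (-3.06) and Top2a (-5.08) were called. In female retinas alone, 3 against 15, 0 genes of the A2, neutrophil, chemokine and cell cycle lists were called by limma, with 2, 0, 9 and 14 at an unadjusted p below 0.05.

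Genes of reactive glia were among those with the smallest FDR. Serpina3n (ENSMUSG00000021091, chromosome 12, 104406729 to 104414329; all coordinates are mm10), which encodes a secreted serine protease inhibitor and is a classic marker of reactive astrocytes, was at 49.1, 76.3, 44.6, 34.98, 27.7, 23.05 and 60.95 CPM in day 14 replicates 1 to 7. At day 2 it ranged from 116 to 1882 CPM (median 523). All 7 day 14 retinas lay below all 31 day 2 retinas, with a log2 fold change of -3.56 ± 0.36 (SE) and an FDR of 1.55e-08 (limma). The gene belongs to a cluster of closely related copies, between which reads can be split. Stat3 (ENSMUSG00000004040, chromosome 11, 100885098 to 100939540), the transcription factor that carries signals of the gp130 receptor, was at 104, 88.1, 92.4, 92.5, 124, 101 and 91.9 CPM at day 14 and at 127 to 319.7 CPM (median 214) at day 2. Again no day 14 retina reached the lowest day 2 retina, and Stat3 fell by 1.07 on the log2 scale (SE 0.11, FDR 1.55e-08).

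Of the 13 genes of the pan-reactive glial list tested, 12 were lower at day 14, 0 were higher, and the median log2 fold change was -1.25 against 0.01 for all genes tested. The exception was Hspb1, a small heat shock protein, at -0.19. For 6 of the 13 the groups did not overlap. Lcn2 (ENSMUSG00000026822, chromosome 2, 32384633 to 32388252), the iron-siderophore carrier lipocalin 2, was at 5.79, 5.95, 4.59, 3.29, 5.47, 5.46 and 8.59 CPM at day 14. Its day 2 levels ranged from 27.6 to 412 CPM (median 91.1), so the highest day 14 retina stayed below the lowest day 2 retina. The log2 fold change of Lcn2 was -4.18 ± 0.71 (FDR 5.70e-05). Gfap (ENSMUSG00000020932, chromosome 11, 102887336 to 102900912), the glial intermediate filament that Müller glia express after injury, was at 43.9, 22.2, 34.5, 26.5, 46.9, 38.6 and 27.3 CPM at day 14 and at 45.6 to 167 CPM (median 93.4) at day 2. For Gfap, 1 of the 31 day 2 retinas lay below the highest day 14 retina, and the log2 fold change was -1.39 ± 0.19 (FDR 3.74e-06).

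Other pan-reactive members followed the same direction at lower and higher levels. Timp1, an inhibitor of matrix metalloproteinases, was at 1.56, 1.396, 0.797, 1.33, 1.11, 1.17 and 0.86996 CPM at day 14 and at 2.65 to 28.7 CPM (median 8.36) at day 2, with no overlap (log2 fold change -2.84 ± 0.60, FDR 0.000742). Vim, a second intermediate filament, averaged 106 ± 8.85 CPM (SD, n = 7) at day 14 and 235 ± 65.4 CPM (SD, n = 31) at day 2, again without overlap (FDR 6.57e-07). Cp, which encodes the copper-binding ferroxidase ceruloplasmin, averaged 259.6 ± 33.4 CPM at day 14 against 577 ± 149.9 CPM at day 2 (FDR 3.95e-07). Steap4, a metalloreductase of the list that was picked out after its values were seen, was at 3.59, 2.69, 2.93, 1.41, 2.87, 3.54 and 2.99 CPM at day 14 and at 5.24 to 113 CPM (median 17.3) at day 2. Its range at day 2 was wide, and its log2 fold change was -2.71 ± 0.72 (FDR 0.00613). Summed over the list, levels were 470 to 643 CPM at day 14, highest in replicate 1, and 807 to 3830 CPM at day 2.

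**Figure D1:**
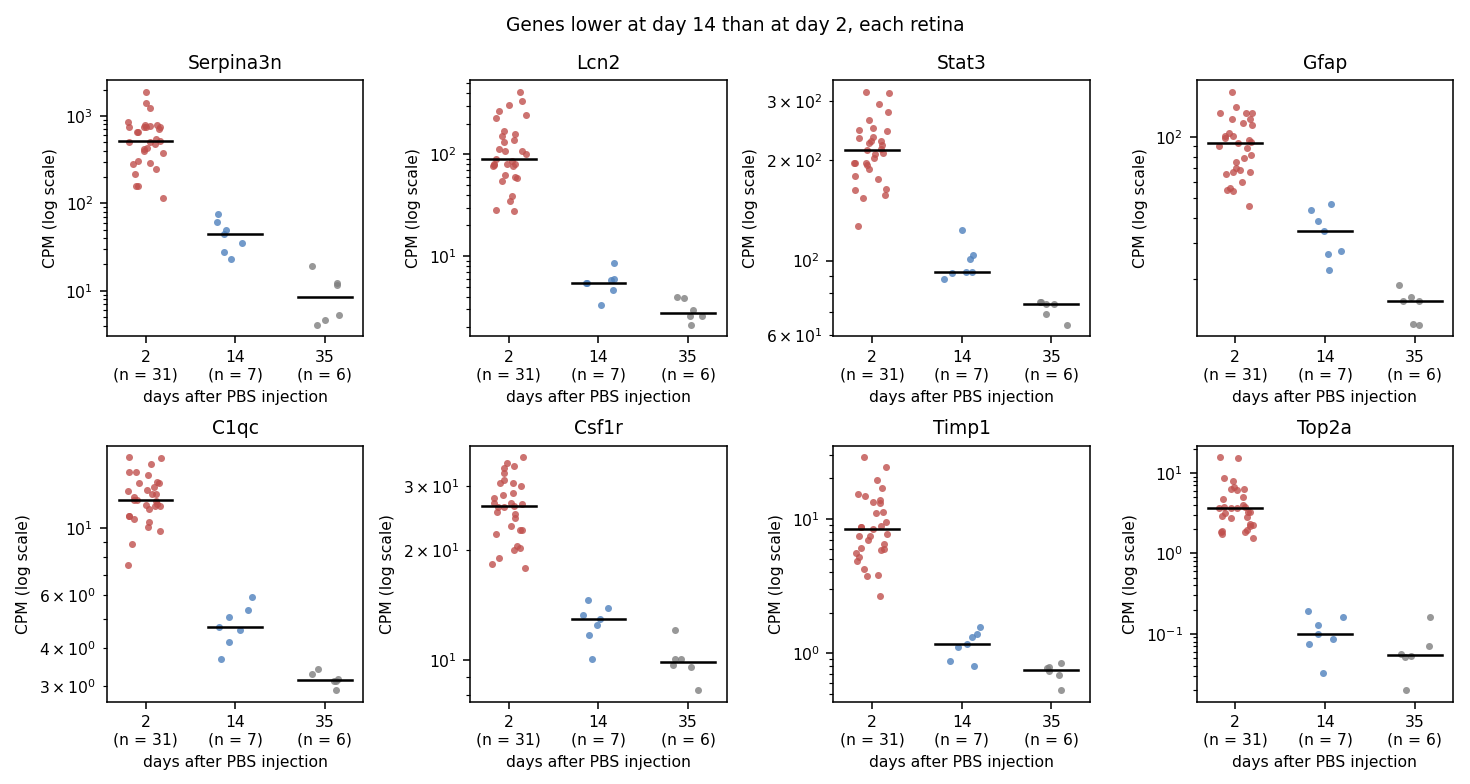
Level of 8 genes in CPM on a log axis, 1 point per PBS retina, at days 2 (n = 31), 14 (n = 7) and 35 (n = 6) after injection, with a bar at the median. The points of Serpina3n, Lcn2, Stat3, C1qc, Csf1r, Timp1 and Top2a do not overlap between day 2 and day 14, while for Gfap 1 day 2 retina lies below the highest day 14 retina.

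The acute injury genes of the retina moved the same way, with 18 of 20 lower, 0 higher and a median log2 fold change of -1.13. The remaining pair were Egr1, an immediate early transcription factor (-0.11), and Cntf, a gp130 ligand (-0.48). Ligands and secreted factors were among those that fell. Edn2, an endothelin made by photoreceptors after damage, was at 15.9, 15.8, 21.4, 12.98, 45.7, 30.3 and 16.1 CPM at day 14 and at 16.3 to 106 CPM (median 52.7) at day 2. Replicate 5 carried the highest of these day 14 values, 10 day 2 retinas lay below it, and the log2 fold change was -1.23 ± 0.28 (FDR 0.00176). Fgf2, a survival factor for photoreceptors, averaged 10.3 ± 2.53 CPM at day 14 against 22.6 ± 8.0999 CPM at day 2 (FDR 0.00339), again with the highest level in replicate 5.

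Receptors and regulators of the same list were also among the genes called. Osmr, the oncostatin M receptor, averaged 18.4 ± 2.82 CPM at day 14 and 44.5 ± 12.1 CPM at day 2 (log2 fold change -1.19 ± 0.18, FDR 9.03e-06). Il6st, which encodes gp130 itself, fell less, by 0.48 on the log2 scale (FDR 0.000101). The feedback inhibitor Socs3, picked out after its values were seen, was at 5.24, 5.28, 6.47, 4.47, 9.87, 5.79 and 4.87 CPM at day 14 and at 6.41 to 67.9 CPM (median 23.2) at day 2. Replicates 3 and 5 of day 14 came above the lowest level of day 2, and the log2 fold change of Socs3 was -1.91 ± 0.38 (FDR 0.000417). Cebpd, an acute-phase transcription factor, averaged 8.36 ± 2.59 CPM at day 14 against 29.96 ± 13.5 CPM at day 2 (FDR 0.00046), with replicate 5 again the highest of the day 14 retinas. A2m, the protease trap alpha-2-macroglobulin, averaged 46.9 ± 13.5 CPM against 148 ± 63.4 CPM (FDR 6.94e-05).

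Gene lists share members, for example Psmb8 in the A1 and antigen presentation lists, so their falls are not independent. Of the genes used to mark A1 astrocytes, 8 of 11 were lower and 0 higher (median log2 fold change -0.93). They include Serping1, the C1 inhibitor of complement (15.03 ± 3.74 CPM at day 14 against 39.01 ± 9.61 CPM at day 2, FDR 1.54e-06), and Ggta1, a galactosyltransferase (-1.04). Of the A2 genes, 4 of 11 were lower and 0 higher (median -0.72), namely Tgm1, S100a10, Tm4sf1 and Cd14. Of these, Tgm1, a transglutaminase, was past the threshold by little (FDR 0.0433), and 24 of 31 day 2 retinas lay below its highest day 14 retina, replicate 2.

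Marker genes of Müller glia and astrocytes, a set that includes the injury gene Gfap, gave calls in both directions. Of the 12 Müller glial genes, 3 were lower and 3 higher, and the median log2 fold change was 0.06. The fallers were Crym, a thyroid hormone-binding protein (38.2 ± 3.91 CPM at day 14 against 86.1 ± 20.5 CPM at day 2, no overlap, FDR 2.55e-07), the transcription factor Sox9 (-0.28) and the glutamate transporter Slc1a3 (-0.19). Glul (ENSMUSG00000026473, chromosome 1, 153899944 to 153909723), the glutamine synthetase that recycles glutamate, was at 2483, 2819, 2675, 2414, 2038, 2308 and 2467 CPM at day 14 and at 1053 to 2282 CPM (median 1728) at day 2. For Glul, 5 day 2 retinas lay above the lowest day 14 retina, replicate 5, and the log2 fold change was 0.59 ± 0.12 (FDR 0.000414).

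Rlbp1, the retinaldehyde-binding protein of Müller glia and pigment epithelium, was at 296, 305, 335, 288, 257, 296 and 311 CPM at day 14 and at 146 to 272 CPM (median 214) at day 2. The log2 fold change of Rlbp1 was 0.55 ± 0.088 (FDR 2.41e-05), and 1 day 2 retina lay above the lowest day 14 retina. Apoe, the lipid carrier, rose by 0.33 (FDR 0.0391) but was not called when libraries were scaled by totals alone. With the 4 number-matched day 2 retinas Rlbp1 was called at 0.38, and Glul was at 0.33 with an FDR of 0.0756 (limma). Among 8 astrocyte genes, Gfap and Aldh1l1, a folate enzyme of astrocytes (15.1 ± 2.21 CPM at day 14 against 26.8 ± 5.496 CPM at day 2, FDR 3.04e-05), were lower and the growth factor Igf1 was higher (0.21).

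Microglial transcripts fell. Of 12 homeostatic microglial genes, 11 were lower and 0 higher (median log2 fold change -0.69), Sall1, a transcription factor of microglial identity, being the exception at -0.24. Csf1r, the receptor on which microglia depend for survival, was at 12.9, 14.6, 11.7, 10.04, 12.4, 13.3 and 13.9 CPM at day 14 and at 17.9 to 35.98 CPM (median 26.4) at day 2. The groups did not overlap, and the log2 fold change was -1.002 ± 0.12 (FDR 4.54e-07). Cx3cr1, the fractalkine receptor, averaged 6.76 ± 0.705 CPM against 11.7 ± 1.78 CPM, Fcrls, an Fc receptor-like gene of microglia, 1.11 ± 0.249 CPM against 5.31 ± 1.8001 CPM, and Selplg, a selectin ligand, 2.097 ± 0.446 CPM against 5.75 ± 1.63 CPM, each without overlap. Their FDR was 3.60e-06, 7.92e-06 and 3.65e-06 in that order. Summed homeostatic genes were at 60.8 to 72.0 CPM at day 14 and 91.9 to 147 CPM at day 2.

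Genes of disease-associated microglia were lower for 16 of 20, with a median log2 fold change of -0.81, and 1, Apoe, was higher. Cd9, a tetraspanin, fell without overlap (41.3 ± 3.32 CPM at day 14 against 69.2 ± 10.4 CPM at day 2, FDR 3.95e-07). Cd68, a lysosomal protein of phagocytes, averaged 2.56 ± 0.429 CPM against 6.53 ± 2.63 CPM (FDR 0.000513), and Cd52, a surface glycoprotein of leukocytes, 0.554 ± 0.205 CPM against 2.698 ± 1.28 CPM (FDR 0.000433). Csf1, a ligand of Csf1r, fell by 0.84 on the log2 scale (FDR 0.000115), and its day 14 level was highest in replicate 1 (11.2 CPM against 7.47 to 8.47 CPM in the other 6). Tyrobp, the adaptor through which Trem2 signals, was picked out after its values were seen and was at 1.7004, 1.26, 1.28, 1.47, 1.43, 1.77 and 1.305 CPM at day 14 and at 2.15 to 10.7 CPM (median 4.38) at day 2 (log2 fold change -1.63 ± 0.37, FDR 0.00164). The groups did not overlap for it.

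Of 19 complement genes, 15 were lower and 0 higher, with a median log2 fold change of -1.21, and for 8 the groups did not overlap. C1qc, a chain of the C1q recognition protein made by microglia, was at 5.897, 5.35, 4.72, 4.18, 5.08, 3.67 and 4.59 CPM at day 14 and at 7.55 to 17.2 CPM (median 12.4) at day 2. Every day 14 retina was below every day 2 retina (log2 fold change -1.37 ± 0.14, FDR 1.55e-08). C1qb followed (5.19 ± 0.682 CPM at day 14 against 12.6 ± 2.91 CPM at day 2, FDR 3.69e-06). C3, the central component of the cascade, was picked out after its values were seen. It was at 14.2, 6.35, 6.69, 3.32, 5.57, 4.71 and 8.45 CPM at day 14 and at 19.9 to 219 CPM (median 77.9) at day 2, which leaves a gap between the highest day 14 retina, replicate 1, and the lowest of day 2. The log2 fold change of C3 was -3.44 ± 0.57 (FDR 3.54e-05).

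C4b, which is cleaved after C1q binds, averaged 40.9 ± 12.5 CPM at day 14 and 92.3 ± 21.2 CPM at day 2 (FDR 3.01e-07), and replicate 1 reached 66.8 CPM, above 4 day 2 retinas. C4b has a near-identical neighbour, so reads may be shared between the copies. Itgam and Itgb2, the chains of complement receptor 3, fell without overlap, by 1.61 (FDR 5.68e-05) and 1.87 (FDR 0.000467) on the log2 scale. The genes not past the threshold were C2, Cfp, Cd59a and Cd55, of which the last pair are regulators that protect host cells. Summed complement genes were at 143 to 216 CPM at day 14 and 241 to 573 CPM at day 2.

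**Figure D2:**
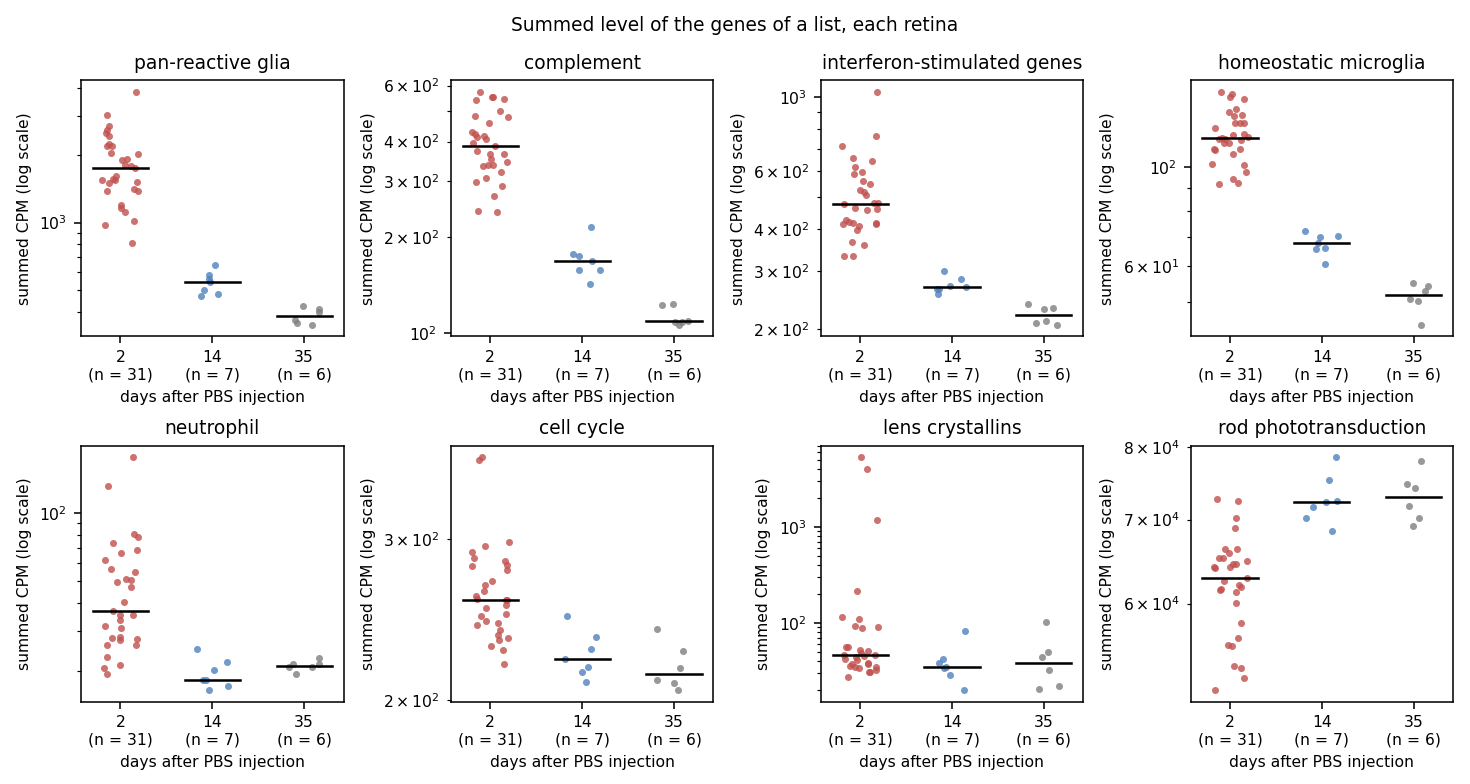
Summed level of the genes of 8 lists in CPM on a log axis, 1 point per PBS retina at days 2 (n = 31), 14 (n = 7) and 35 (n = 6), with a bar at the median. Pan-reactive, complement, interferon-stimulated and homeostatic microglial sums do not overlap between day 2 and day 14. Lens sums do, and 3 day 2 retinas lie above 1000 CPM.

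All 25 interferon-stimulated genes tested were lower at day 14, with a median log2 fold change of -0.93 and a range from -1.94 to -0.33. Oas1a (ENSMUSG00000052776, chromosome 5, 120896256 to 120907521), an RNA-sensing synthetase, was at 0.494, 0.199, 0.255, 0.115, 0.293, 0.374 and 0.217 CPM at day 14 and at 0.5296 to 2.61 CPM (median 1.097) at day 2. These are low levels, with 68 counts over the 7 day 14 retinas, and no day 14 retina reached day 2 (log2 fold change -1.94 ± 0.31, FDR 2.13e-05). Irf9, a subunit of the factor through which type I interferons act, was at 19.2 ± 2.78 CPM at day 14 and 44.8 ± 14.7 CPM at day 2 without overlap (FDR 4.27e-05). Ifitm3, a membrane protein that blocks virus entry, fell by 1.63 on the log2 scale (FDR 3.22e-05), and Gbp2, a guanylate-binding protein, by 1.13 (FDR 0.000102). Isg15, a ubiquitin-like modifier picked out after its values were seen, was at 1.29, 1.06, 1.21, 1.096, 1.01, 1.35 and 0.952 CPM at day 14 and at 1.11 to 4.05 CPM (median 2.09) at day 2 (FDR 0.00431).

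The promoters of these genes were searched for the core of the interferon-stimulated response element. The core is a pair of TTTC half-sites with 2 bases of any kind between them. Both strands were read in the 250 bases before the RefSeq start (GRCm38.p6). Of the 25 genes, 19 had a window, and 10 of the 19 (52.63%) held the core, against 3.463% of 27025 genes of the same table. A high share goes with a list of known interferon-stimulated genes, whatever their change between the days, and the match is a description of letters. Oas1a, Gbp2 and Isg15 are shown because they are named above and hold the core, with capitals for its letters. They lie at chr5:120907526-120907775 (minus strand), chr3:142620413-142620662 (plus strand) and chr4:156200819-156201068 (minus strand), each written 5′ to 3′ along its gene.
Oas1a: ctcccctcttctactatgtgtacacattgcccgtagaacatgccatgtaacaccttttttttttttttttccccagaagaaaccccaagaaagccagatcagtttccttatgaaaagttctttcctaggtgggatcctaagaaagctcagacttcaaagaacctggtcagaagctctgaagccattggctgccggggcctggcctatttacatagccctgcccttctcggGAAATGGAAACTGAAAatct
Gbp2: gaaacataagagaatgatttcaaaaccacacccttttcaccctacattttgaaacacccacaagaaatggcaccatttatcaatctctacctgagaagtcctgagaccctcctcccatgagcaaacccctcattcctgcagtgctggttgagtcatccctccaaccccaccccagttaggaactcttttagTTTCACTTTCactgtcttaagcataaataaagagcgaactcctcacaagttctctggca
Isg15: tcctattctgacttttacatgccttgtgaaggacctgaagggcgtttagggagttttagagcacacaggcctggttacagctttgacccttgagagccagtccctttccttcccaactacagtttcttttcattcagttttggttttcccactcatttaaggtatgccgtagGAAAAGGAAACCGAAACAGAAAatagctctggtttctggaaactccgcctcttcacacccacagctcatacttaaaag
Oas1a holds 2 overlapping matches, Gbp2 1 and Isg15 3. In Oas1a the matches end within 10 bases of the start, and in Gbp2 and Isg15 they lie farther upstream.

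Antigen presentation genes were lower for 9 of 15 and higher for 0 (median log2 fold change -0.89). Class I genes were among the 9. H2-D1 averaged 49.1 ± 5.75 CPM at day 14 and 104 ± 39.3 CPM at day 2 (FDR 0.000284), with a wide spread at day 2, and B2m, the light chain of class I, 27.2 ± 6.08 CPM against 49.2 ± 14.9 CPM (FDR 0.000811). H2-Q4 fell by 0.74 and Psmb8, a subunit of the immunoproteasome, by 0.93 on the log2 scale. The H2 genes are similar in sequence and their reads may be shared. None of the class II genes H2-Aa, H2-Ab1, H2-Eb1 and Cd74 was called by limma, with log2 fold changes from -1.34 to -0.89. Of these 4, edgeR called Cd74 (FDR 0.0163), and DESeq2 called all but H2-Ab1 (FDR 0.00378 for Cd74, 0.024 for H2-Aa and 0.0332 for H2-Eb1). Over the 15 genes edgeR called 10 and DESeq2 13.

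Transcripts of blood-borne cells were sparse at day 14. For neutrophils, 3 of 10 genes were lower and 0 higher (median log2 fold change -2.65), while edgeR called 6 and DESeq2 7 of them. Cxcr2, the receptor that draws neutrophils to chemokines, was at 0 in 5 of the 7 day 14 retinas and at 0.0326 and 0.109 CPM in replicates 5 and 7, while day 2 ranged from 0.0731 to 16.4 CPM (median 2.03). The FDR of 0.0401 was lost whenever any day 14 retina was left out. Csf3r, the receptor for granulocyte colony-stimulating factor, averaged 1.29 ± 0.532 CPM at day 14 against 12.6 ± 11.2 CPM at day 2 (FDR 0.0292). Mmp8, a collagenase of neutrophils, had 1 count in the 7 day 14 retinas and 320 in the 31 of day 2, a ratio of counts per library size of 70.4 with a 95% interval of 11.9 to 2616 that covers counting error only. S100a8 and S100a9, the main neutrophil calgranulins, were at -5.18 and -5.86 without passing the threshold. The 2 day 2 retinas with neutrophil sums above 100 CPM, named above, are part of these values.

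Of 12 monocyte and macrophage genes, 7 were lower and 0 higher (median log2 fold change -1.28). Fn1, fibronectin, was at 63.1 ± 4.65 CPM at day 14 and 117 ± 31.8 CPM at day 2 without overlap (FDR 4.27e-05), though other cells express it too. F13a1, a coagulation factor chain of macrophages, averaged 0.434 ± 0.275 CPM against 2.65 ± 1.31 CPM, Adgre1, which encodes F4/80, 1.24 ± 0.358 CPM against 4.22 ± 1.76 CPM, and Mrc1, a mannose receptor, 1.13 ± 0.527 CPM against 3.55 ± 1.79 CPM. Each of these passed the threshold (FDR 0.000408, 0.000705 and 0.003). The lymphocyte genes gave 1 call in each direction of 6 tested, Ighm at -1.03 and Cd79a at 0.67, and the 5 globin and other erythrocyte genes gave 0 calls by limma, edgeR or DESeq2 and 0 at an unadjusted p below 0.05 (Hba-a2 the smallest p with 0.44 and an FDR of 0.324).

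Of 19 chemokines and cytokines, 13 were lower and 0 higher (median log2 fold change -1.28). Ccl2, which recruits monocytes, was at 0.137, 0, 0.0319, 0, 0.163, 0.0249 and 0.326 CPM at day 14 and at 0.219 to 8.899 CPM (median 0.935) at day 2, where it varied widely (FDR 0.0226). Il1b, the cytokine interleukin 1 beta, picked out after its values were seen, was at 0.192, 0.199, 0.0319, 0.144, 0.261, 0.249 and 0.381 CPM at day 14 and at 0.365 to 14.6 CPM (median 1.64) at day 2. Of the 7 day 14 retinas only replicate 7 came above the lowest day 2 retina, and the FDR was 0.0356 at a log2 fold change of -3.08 ± 1.06. Il1a, the cytokine that other eyes of the study received, was at -0.24 and was not called. Tgfb1 fell by 1.28 on the log2 scale (FDR 0.000417), Ccl12 by 1.95 (FDR 0.000677), the alarmin Il33 by 0.36 (FDR 0.00106) and Cxcl16 by 0.25 (FDR 0.0058). Among the 8 largest falls of genes at a mean of 1 CPM or more were also Saa3, an acute-phase apolipoprotein (-5.78), Il1rn, the interleukin 1 receptor antagonist (-5.34), and Ppbp, a platelet chemokine (-4.82), each with 23 counts or fewer over the day 14 retinas.

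Leukocyte adhesion genes were lower for 11 of 12, and 1, the junction protein Jam2, was higher at 0.14 (median of the list -1.31). The selectins of activated endothelium were picked out after their values were seen. Sele was at 0.0549, 0.0332, 0, 0.0288, 0.0651, 0 and 0.0272 CPM at day 14 and at 0.0244 to 2.32 CPM (median 0.368) at day 2 (FDR 0.00667). Selp was at 0 in 6 of the day 14 retinas and at 0 to 3.15 CPM (median 0.276) at day 2 (FDR 0.0126), also with 0 in 2 of those. Vcam1, the adhesion ligand for integrins, averaged 18.3 ± 2.29 CPM at day 14 against 36.95 ± 13.2 CPM at day 2 (FDR 0.000935). Among general endothelial and pericyte genes, 7 of 17 were lower and 0 higher, with a median of -0.22. They were led by Vwf, von Willebrand factor (17.6 ± 3.68 CPM against 37.998 ± 9.07 CPM, FDR 5.70e-06). Smaller falls were those of Pecam1 (-0.38), Cdh5 (-0.56), Tie1 (-0.55), the junction gene Cldn5 (-0.40), Tek (-0.24) and Rgs5 (-0.22). The barrier transporters Slc2a1, Slco1a4, Abcb1a and Mfsd2a were not called.

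Of 26 extracellular matrix genes, 13 were lower and 0 higher, with a median log2 fold change of -0.82. Sparc, a collagen-binding matricellular protein, was at 203, 163, 162, 139, 119, 160.3 and 158 CPM at day 14 and at 209.7 to 392 CPM (median 286) at day 2. It separated the groups fully, with replicate 1 the highest and replicate 5 the lowest of day 14, and fell by 0.84 on the log2 scale (SE 0.09, FDR 1.55e-08). Adamts1, a proteoglycan-cleaving protease, averaged 34.6 ± 6.52 CPM against 74.03 ± 26.1 CPM (FDR 0.000483). Col3a1, a fibrillar collagen, and Tgfbi, a TGF-beta-induced matrix protein, were picked out after their values were seen. Col3a1 was at 3.89, 3.42, 3.57, 1.41, 0.586, 1.27 and 2.501 CPM at day 14 and at 4.04 to 99.2 CPM (median 11.8) at day 2 (FDR 0.011), and Tgfbi at 1.67, 1.33, 2.17, 1.096, 0.456, 1.15 and 1.66 CPM and 2.72 to 35.8 CPM (median 10.6) (FDR 0.00361). Summed matrix genes ran from 526 to 804 CPM at day 14, highest in replicate 1, and from 780 to 1898 CPM at day 2. The highest day 2 sum was that of replicate 23, which also had the highest sums of pigment epithelium genes (1466 CPM against a median of 555), of cornea, iris and ciliary body genes (246 against 57.6) and of cell cycle genes (368 against 257). Without it, 14 matrix genes and 19 cell cycle genes were lower, against 10.3% of all genes, and 3488 genes were called in all, a setting chosen after the data were seen.

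Of 30 cell cycle genes, 19 were lower and 0 higher, with a median log2 fold change of -0.48, and for 5 the groups did not overlap. Among the largest falls were those of genes that act in mitosis. Top2a (ENSMUSG00000020914, chromosome 11, 98992943 to 99024189), the topoisomerase of dividing cells, was at 0.192, 0.0997, 0.128, 0.0865, 0.0326, 0.0748 and 0.163 CPM at day 14 and at 1.56 to 15.6 CPM (median 3.61) at day 2 (log2 fold change -4.97 ± 1.04, FDR 0.000692). With 27 counts over the 7 day 14 retinas, its ratio of mean levels, day 2 over day 14, was 41.1, with a 95% counting interval of 27.8 to 61.5. Mki67, the gene of the Ki-67 proliferation antigen, averaged 0.245 ± 0.0972 CPM at day 14 and 6.68 ± 5.25 CPM at day 2 (FDR 0.00149). Birc5, Bub1 and Aurkb, which act at kinetochores and the spindle, fell by 1.70, 2.69 and 2.68 on the log2 scale. Genes of DNA replication and of the G1 phase were mixed, with Rrm2 (-2.74), Mcm3 and Mcm6 called and Mcm2, Mcm5, Pcna, Ccnd1 and Ccne1 not. Uhrf1 was also called (-1.72). The mitotic genes Aurka (-0.06) and Bub1b (0.01) were not called, so mitotic genes were mixed too. The list does not say which cells divided at day 2.

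Mitotic genes are known to share CCAAT boxes and the cell cycle homology region (CHR) in their promoters, so both were searched on both strands of the same windows, CCAAT and TTTGAA. Of 24 cell cycle genes with a window, 19 (79.17%) held CCAAT, against 37.49% of all 27025 genes, and 6 (25%) held TTTGAA, against 18.26%. The windows of Top2a (chr11:99024190-99024439, minus strand) and Mki67 (chr7:135716380-135716629, minus strand) are shown as the members described above, with both motifs in capitals. No letter belongs to both motifs.
Top2a: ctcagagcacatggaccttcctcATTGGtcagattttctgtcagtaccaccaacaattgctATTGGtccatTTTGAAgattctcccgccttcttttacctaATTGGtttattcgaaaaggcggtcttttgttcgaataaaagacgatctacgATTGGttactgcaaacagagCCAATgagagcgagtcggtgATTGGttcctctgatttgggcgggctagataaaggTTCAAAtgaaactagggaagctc
Mki67: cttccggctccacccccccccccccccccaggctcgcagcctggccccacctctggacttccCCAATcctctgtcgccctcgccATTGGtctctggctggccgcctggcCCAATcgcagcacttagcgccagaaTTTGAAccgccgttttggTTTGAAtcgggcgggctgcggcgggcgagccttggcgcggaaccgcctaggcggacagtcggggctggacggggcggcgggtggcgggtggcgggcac
Top2a holds 6 CCAAT and 2 TTTGAA matches and Mki67 3 and 2, counted on both strands. A STAT site, TTCC and GGAA with 1 base of any kind between them, was found in 1 of 13 pan-reactive windows (7.692%, Steap4) and in 0 of 16 windows of the acute injury genes, against 1.092% of all genes.

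Changes of photoreceptor genes were small. Of 18 rod genes, 13 were higher and 0 lower (median log2 fold change 0.22), and 11 were higher when libraries were scaled by totals alone. Nrl (ENSMUSG00000040632, chromosome 14, 55518978 to 55524981), the transcription factor that sets rod fate, was at 1161, 1216, 1234, 1212, 1169, 1224 and 1255 CPM at day 14 and at 765 to 1186 CPM (median 959) at day 2. Only 2 day 2 retinas came above the lowest day 14 retina, and the log2 fold change was 0.37 ± 0.067 (FDR 0.000139). Gnb1, a transducin subunit, averaged 6339 ± 312 CPM against 5147 ± 567 CPM (FDR 0.000518), and Cngb1, a chain of the rod channel, 594 ± 27.5 CPM against 528 ± 33.8 CPM (FDR 0.000467). Sag, rod arrestin, was at 0.01 and not called. With the 4 number-matched day 2 retinas 1 of the 18 was called, Nrl, at 0.23.

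Among 12 cone genes, 6 were higher and 1 was lower (median log2 fold change 0.13). Arr3, cone arrestin, showed the largest rise of the list, at 261, 277, 278, 328, 318, 309 and 289 CPM on day 14 and 105 to 315 CPM (median 189) on day 2. A single day 2 retina lay within the range of day 14, and the log2 fold change was 0.71 ± 0.14 (FDR 0.000303). Pde6h and Cngb3, of the cone phosphodiesterase and channel, rose by 0.34 and 0.36 (FDR 0.00012 and 0.000237). Gnb3, a transducin subunit that bipolar cells also use, was lower (343 ± 42.003 CPM against 485 ± 87.9 CPM, FDR 0.000475). The cone opsins Opn1sw and Opn1mw were both at 0.13 and not called. With the 4 number-matched day 2 retinas 3 of the 12 were higher and 0 lower by limma, and Gnb3 was at -0.16 (FDR 0.383, limma).

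**Figure D3:**
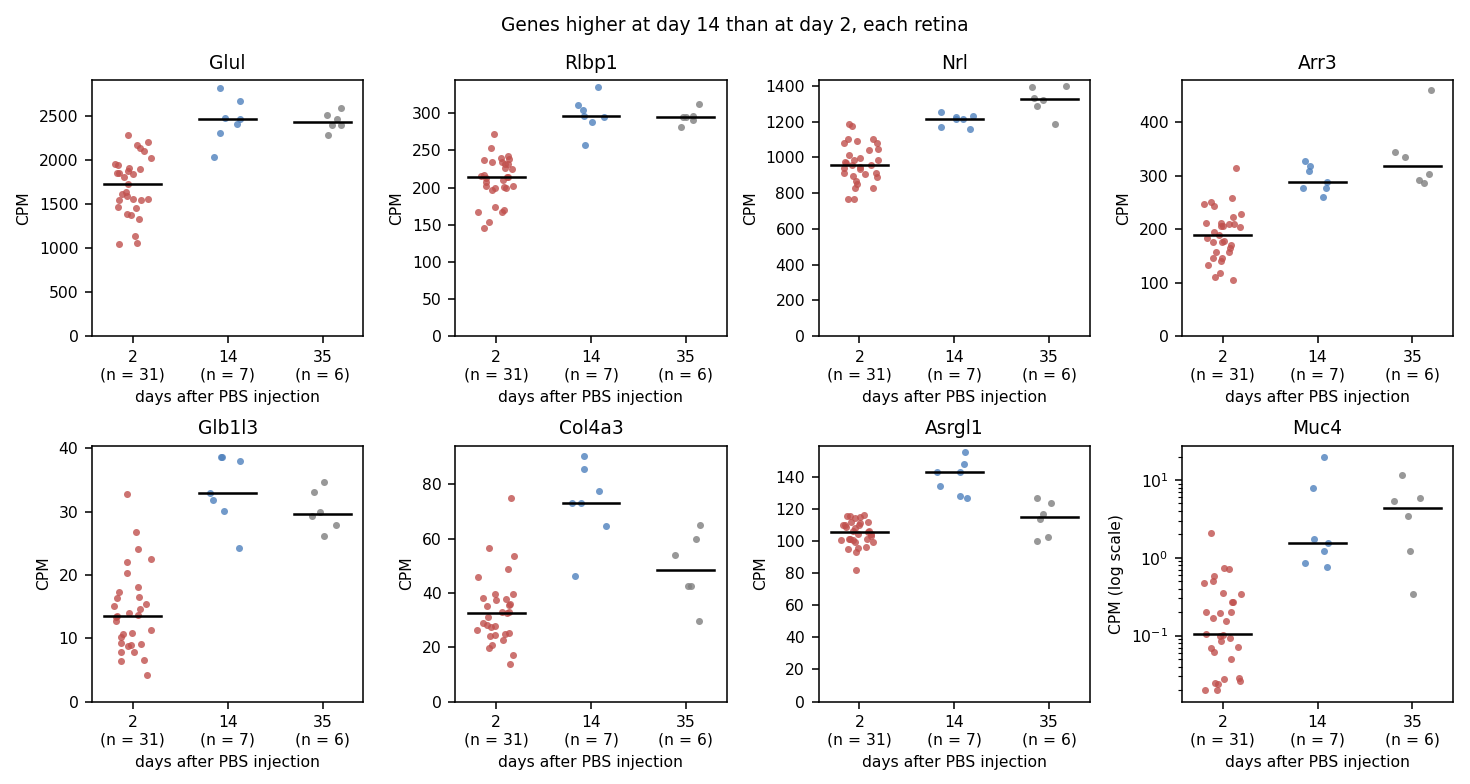
Level of 8 genes in CPM, 1 point per PBS retina at days 2 (n = 31), 14 (n = 7) and 35 (n = 6), with a bar at the median, on linear axes from 0 except Muc4, whose axis is logarithmic with values below 0.02 CPM drawn at 0.02. For Asrgl1 all day 14 retinas lie above all day 2 retinas, while for Glul, Rlbp1, Nrl, Arr3, Glb1l3 and Col4a3 between 1 and 5 day 2 retinas reach into the day 14 range.

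Among inner retinal genes 16 of 42 were higher and the others were not called. Of the 14 genes of retinal ganglion cell (RGC) identity, 5 were higher and 0 lower (median log2 fold change 0.15), namely Pou4f1, Pou4f2, Nefm, Slc17a6 and Chrna6. Pou4f2, an RGC transcription factor, averaged 11.4 ± 0.657 CPM at day 14 and 9.79 ± 1.12 CPM at day 2 (FDR 0.00507), and 10 day 2 retinas lay above its lowest day 14 retina. Rbpms, the usual RGC marker, was at 0.09 and Sncg, gamma-synuclein, at 0.07, neither past the threshold. Bipolar genes were higher for 5 of 13 and lower for 0 (median 0.12), among them Prkca, the kinase that marks rod bipolar cells (459 ± 25.6 CPM against 386 ± 43.97 CPM, FDR 0.00283). Amacrine and horizontal genes were higher for 6 of 15 and lower for 0 (median 0.14), among them Tfap2b, an amacrine transcription factor (0.18, FDR 0.00189), and Slc6a9, the glycine transporter (0.17, FDR 0.00665). With scaling by totals alone the higher genes numbered 3 for RGC, 2 for bipolar and 2 for amacrine and horizontal cells, and with the 4 number-matched day 2 retinas 1, 0 and 0.

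Genes that injured RGCs induce were lower for 5 of 14 and higher for 0 (median log2 fold change -0.21). Sprr1a, a regeneration-associated gene, was at 0.137, 0.0665, 0, 0, 0.0651, 0.0499 and 0 CPM at day 14 and at 0.069997 to 1.07 CPM (median 0.309) at day 2 (FDR 0.000557). Atf3 and Jun, stress transcription factors, were called. Atf3 averaged 7.66 ± 0.666 CPM at day 14 and 17.1 ± 5.97 CPM at day 2 (FDR 0.00242) and Jun 35.2 ± 1.73 CPM and 50.2 ± 9.31 CPM (FDR 0.00121). Lgals3, galectin 3, which macrophages express strongly, fell by 1.69 on the log2 scale and Gap43, a growth cone protein, by 0.22. Sox11, Ecel1, Hrk and Ddit3, of the same list, were not called, at 0.03, 0.42, 0.28 and -0.08. Of 20 AP-1 and immediate early genes, 9 were lower, led by Junb (-1.39, FDR 0.000193) and Fosb (-1.105, FDR 0.000424), and Dusp1, a phosphatase of MAP kinases, was higher (0.28). With scaling by totals alone, 9 were lower and 0 higher.

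Stress and metabolic lists gave calls mainly in the lower direction, most of them small. Of 14 NRF2 targets and metallothioneins, 8 were lower and 0 higher (median log2 fold change -0.23). Mt2 and Mt1, metallothioneins that bind zinc, averaged 11.5 ± 2.69 and 19.3 ± 2.76 CPM at day 14 against 34.4 ± 13.1 and 41.2 ± 12.1 CPM at day 2 (FDR 0.000209 and 0.000308), and Hmox1, heme oxygenase, fell by 1.15 (FDR 0.00243). Osgin1 (-0.72), Gsta4 (-0.42), Txnrd1 (-0.24) and Prdx1 (-0.21) were also lower, while Nqo1 and Gclc were both at 0.02 and not called. Slc7a11, the cystine transporter, was at 32.3, 34.4, 15.7, 22.6, 8.83, 14.8 and 20.7 CPM at day 14 and at 22.6 to 117 CPM (median 49.9) at day 2 (FDR 0.00127). Its day 14 levels were highest in replicates 1 and 2 and lowest in replicate 5.

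Of 24 hypoxia and glycolysis genes, 10 were lower and 0 higher (median log2 fold change -0.17). Hk1, a hexokinase, averaged 935 ± 42.5 CPM at day 14 and 1283 ± 143 CPM at day 2 (FDR 3.65e-06), and Pdk1, which restrains pyruvate entry into mitochondria, 71.2 ± 6.06 and 94.3 ± 8.15 CPM without overlap (FDR 6.04e-06). Vegfa, the main hypoxia-induced vascular factor, was at -0.05 and not called. Of 20 heat shock and endoplasmic reticulum chaperone genes, 9 were lower and 0 higher (median -0.15), with Xbp1 at -0.35 and Sdf2l1 at -0.57. Of 20 ATF4 targets, 3 were lower (Slc7a11, Shmt2 and Aldh18a1) and 1, Ddit4, was higher (0.15). Over all genes tested 9.85% were lower and 9.13% higher, so the list stood near that share. Ddit4 was at -0.0223 with the number-matched retinas and 0.142 (FDR 0.0545, limma) without day 2 replicate 23. With the number-matched retinas Slc7a11 was called (-1.25), while Shmt2 (FDR 0.234, limma) and Aldh18a1 (FDR 0.306, limma) were not. Cholesterol synthesis genes were higher for 7 of 22 and lower for 1 (median 0.08), for example Insig1, a regulator of sterol synthesis (0.28), with Pmvk the faller (-0.34). With the 4 number-matched day 2 retinas, 0 cholesterol genes and 0 chaperone genes were called by limma.

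The remaining regulatory lists had small medians. For reference, 9.85% of all genes tested were lower and 9.13% higher. Of 16 glucocorticoid-responsive genes 4 were lower and 3 higher (median log2 fold change -0.10), the lowest being Lcn2 of the pan-reactive list at -4.18. Fkbp5 and Tsc22d3, which are direct targets, were at -0.18 and -0.03 without passing the threshold, while Dusp1 (0.28), Sgk1 (0.18) and Ddit4 (0.15) were higher. With scaling by totals alone the split was 6 lower and 0 higher. Of 20 clock genes 5 were higher and 0 lower (median 0.08), with Hlf, Cry2, Nr1d1, Rora and Ciart between 0.12 and 0.20. Of 18 p53 targets 4 were lower, led by the death receptor Fas (0.812 ± 0.237 CPM at day 14 against 2.41 ± 0.943 CPM at day 2, FDR 0.000195), and Sesn1 was higher at 0.103. Of 7 long noncoding RNAs, Neat1, the scaffold of paraspeckles, was lower (37.5 ± 5.41 CPM against 80.4 ± 36.9 CPM, FDR 0.000619). Of 12 cold-inducible and RNA-binding genes, Cirbp was higher (0.37, FDR 0.000245), and of the 13 mitochondrially encoded genes 0 were called by limma, edgeR or DESeq2 and 1 was at an unadjusted p below 0.05 (limma), mt-Nd5 having the smallest p (0.13, FDR 0.128).

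**Figure D4:**
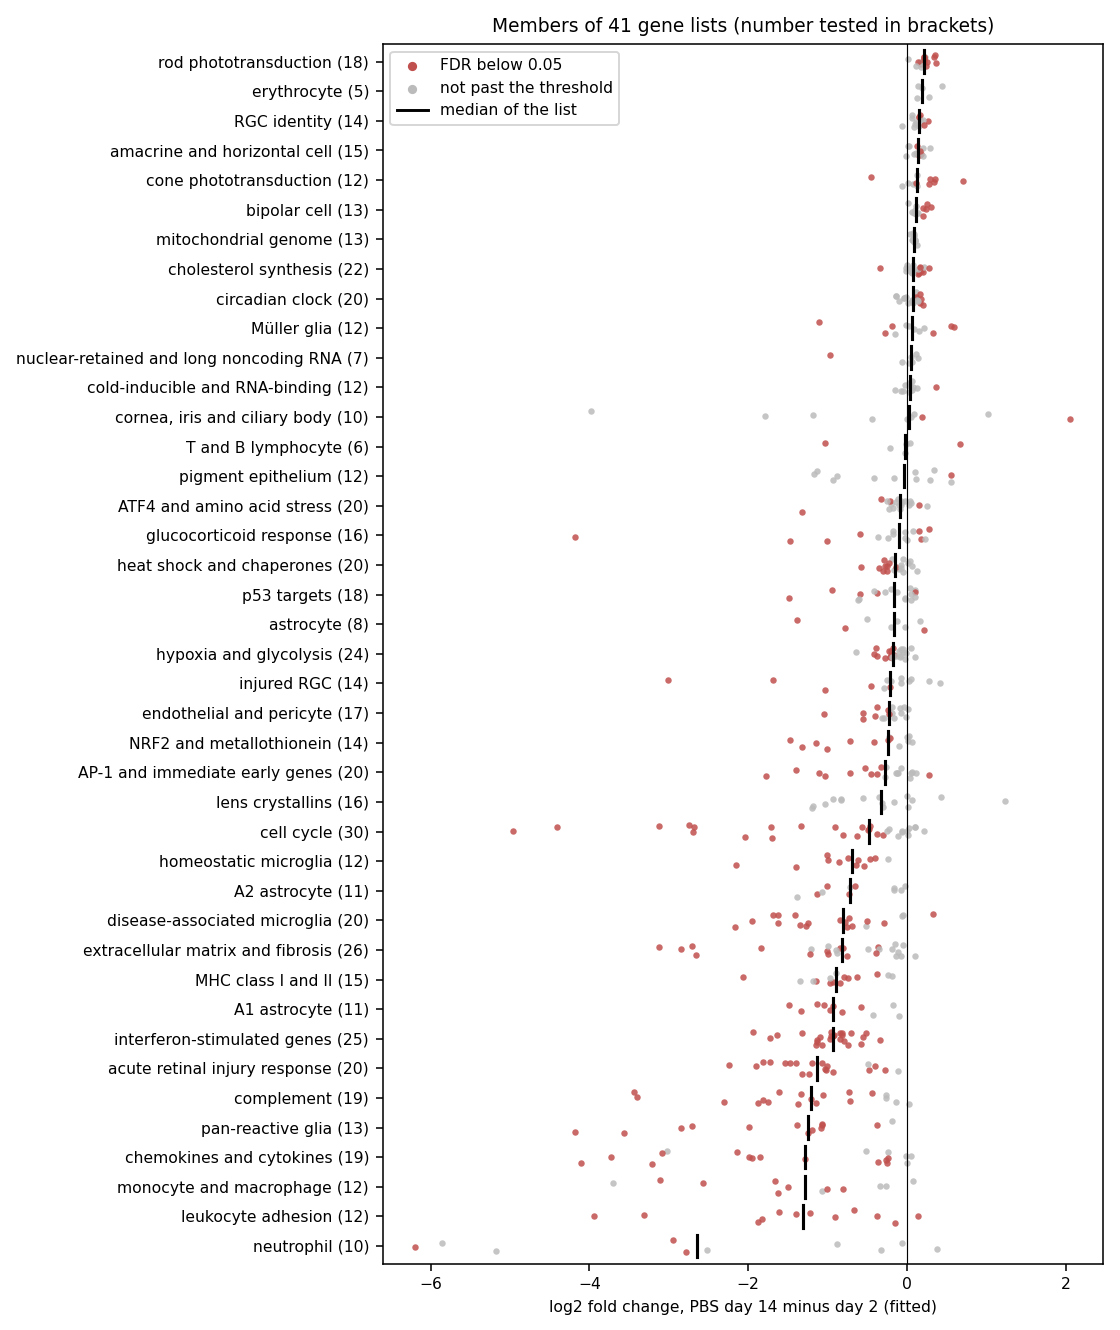
Fitted log2 fold change, day 14 minus day 2, of the members of 41 gene lists, 1 point per gene, red where the FDR was below 0.05 and grey where not, with a black bar at the list's median. The bars of pan-reactive glia (-1.25) and complement (-1.21) lie far left of 0, and those of rods (0.22) and RGC identity (0.15) slightly right of it.

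Named for the size of their rise (8 genes) or for a small FDR (5 genes), the leading genes at day 14 belonged to none of the lists. Col19a1 (ENSMUSG00000026141, chromosome 1, 24261890 to 24587472), a nonfibrillar collagen chain, was at 15.2, 21.1, 20.8, 20.6, 20.8, 15.04 and 17.5 CPM at day 14 and at 5.19 to 13.9 CPM (median 9.52) at day 2, and the groups did not overlap (log2 fold change 0.98 ± 0.10, FDR 1.55e-08). Asrgl1, an asparaginase, was at 128, 148, 156, 134, 143, 127 and 143 CPM and at 81.6 to 116 CPM (median 105), also without overlap (log2 fold change 0.45 ± 0.051, FDR 1.33e-07). Plpp2, a phospholipid phosphatase, averaged 43.97 ± 3.15 CPM against 25.7 ± 4.63 CPM without overlap, and Trim17, a ubiquitin ligase, 28.2 ± 4.37 CPM against 18.7 ± 2.84 CPM with it. Glb1l3, a galactosidase-like gene, was at 30.1, 38.7, 38.7, 38.04, 32.997, 31.8 and 24.3 CPM at day 14 and at 4.27 to 32.7 CPM (median 13.5) at day 2, where it varied several-fold (log2 fold change 1.39 ± 0.21, FDR 9.56e-06). Col4a3, a chain of basement membrane collagen, averaged 73.1 ± 14.5 CPM against 33.6 ± 12.6 CPM, with replicate 1 the lowest of day 14 at 46.3 CPM. The other large rises were of Gm11961, 2410124H12Rik, Dleu7 and Gm14091, genes whose roles are not well known and of which Gm11961 and Gm14091 are annotated as antisense, at 1.26, 1.203, 1.06 and 0.996. With the 4 number-matched day 2 retinas Glb1l3 was at 0.33 (FDR 0.128, limma) and Col4a3 at 0.37 (FDR 0.282, limma). There 2410124H12Rik was at 0.51, Dleu7 at 0.66 and Gm14091 at 0.43, none of them called, and Gm11961 was called at 0.63 (FDR 0.0262, limma).

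The largest rises among the genes described were of epithelial genes at low levels. Muc4 (ENSMUSG00000079620, chromosome 16, 32735886 to 32782391), a membrane mucin of ocular surface and airway epithelium, was at 1.73, 7.97, 0.861, 1.24, 1.56, 0.773 and 19.6 CPM at day 14 and at 0 to 2.08 CPM (median 0.105) at day 2. Replicates 7 and 2 carried most of it, and replicate 3, from the other eye of the mouse that gave replicate 2, was at 0.861 CPM. The log2 fold change was 4.09 ± 0.55 (FDR 2.42e-06), and 1 day 2 retina lay above the lowest day 14 retina. Krt15, a keratin of stratified epithelium and the cornea, was at 0.603, 7.44, 0.191, 0.0865, 0.912, 0.274 and 9.896 CPM at day 14 and at 0.0309 to 1.19 CPM (median 0.177) at day 2 (FDR 0.00492). Without replicate 7 Krt15 was at 1.34 with an FDR of 0.0618 (limma). Asprv1, a protease of cornified epithelium, was at 11.1 CPM in replicate 7 and at 1.41 to 3.26 CPM in the others.

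More genes of this kind were looked up after their values were seen. Krt13 was at 0.8502, 3.59, 0.223, 0.288, 0.423, 0.624 and 17.3 CPM at day 14 and at 0 to 1.60003 CPM (median 0.188) at day 2 (log2 fold change 2.65 ± 0.56, FDR 0.000767), and Krt4 at 0.384, 3.06, 0.223, 0.0577, 0.0977, 0.175 and 11.4 CPM and 0 to 0.914 CPM (median 0.0844), with replicates 7 and 2 again the highest of the day 14 retinas. Muc5ac, a secreted mucin of the conjunctiva, had another pattern, at 2.08, 3.92, 0.924, 3.95, 0.0651, 0.624 and 1.66 CPM at day 14 and 0 to 0.356 CPM (median 0.0263) at day 2 (log2 fold change 4.77 ± 0.62, FDR 1.33e-06), and so had Gp2, a glycoprotein of mucosal epithelium, at 1.12, 1.66, 0.861, 2.34, 0.0326, 0.399 and 0.788 CPM against 0 to 0.306 CPM (median 0). Gp2 and Muc5ac were lowest in replicate 5, and the other 6 day 14 retinas lay above all 31 day 2 retinas for both. With the number-matched day 2 retinas the log2 fold changes were 2.41 for Muc4 (FDR 0.363), 4.04 for Muc5ac (FDR 0.232), 4.601 for Gp2 (FDR 0.177) and 0.66 for Krt15 (FDR 0.826, limma), none of them called. On day 35 Muc4 was at 4.64 ± 4.07 CPM (SD, n = 6). The part of tissue from the eye surface in these rises was not tested.

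Few genes of other eye tissues were called by limma, and the tools differed for the cornea, iris and ciliary body. Of 12 pigment epithelium genes 1 was higher, Rlbp1, which Müller glia also express, and their sum ran from 308 CPM (replicate 5) to 904 CPM (replicate 2) at day 14 and from 277 to 1466 CPM at day 2. Of 16 lens genes 0 were called by limma or edgeR, 1 was called by DESeq2, and 0 were at an unadjusted p below 0.05 (limma), with Cryab, which glia also express, the smallest p (-0.83, FDR 0.22). Without the 3 retinas with lens genes Cryab was called at -0.49 (FDR 0.00782, limma). Of 10 genes of cornea, iris and ciliary body, Krt15 and the cell adhesion gene Opcml (0.19, FDR 0.00424) were higher by limma. There edgeR and DESeq2 called 5 each, against 19.5% and 20.4% of all genes, namely these 2 and, lower, the keratin Krt14 and the smooth muscle genes Acta2 and Des, which limma put at -3.97, -1.18 and -0.44 with an FDR of 0.0725, 0.087 and 0.0583. Tubb5, a beta tubulin that is no member of a list, was among the 5 falling genes with the smallest FDR, at 263, 293, 317, 284, 289.7, 278 and 287 CPM at day 14 and at 351 to 556 CPM (median 432) at day 2, without overlap (log2 fold change -0.56 ± 0.060, FDR 3.36e-08).

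TNF-injected retinas gave the same days in other tissue samples, 6 retinas at day 14 and 8 at day 2, although 4 of the day 14 and 8 of the day 2 mice also gave PBS retinas used above. There, 1655 of 18309 genes were called, 969 lower (5.29%) and 686 higher (3.75%). Of the 1886 genes lower in PBS retinas, 1836 were tested and 97.7% of these had the same sign, against 46.5% of all genes tested in TNF retinas. Of the 1749 higher, 1729 were tested and 96.6% had the same sign, against 53.5%. Called in the same direction were 765 lower genes, which is 40.6% of the PBS calls and 78.9% of the TNF calls, and 488 higher genes, 27.9% and 71.1%. The TNF count moved with single retinas. Leaving out each in turn, which was chosen after the data were seen, gave 702, 972 and 1002 calls without day 14 replicates 3, 5 and 6, 965 and 1094 without day 2 replicates 1 and 7, and 2906 without day 2 replicate 6.

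In the TNF retinas Stat3 was at -0.91 (FDR 0.000226), Gfap at -1.19 (FDR 0.00558) and Lcn2 at -3.61 (FDR 0.0108), all log2 fold changes by limma. Serpina3n was at -2.03 with an FDR of 0.104, so it was not called there. Of the 13 pan-reactive genes 7 were lower, of the 19 complement genes 8, of the 12 homeostatic microglial genes 9, and of the 25 interferon-stimulated genes 5, with Gbp2 at -0.58 and Oas1a at -1.39 not past the threshold. Col19a1 (0.96), Plpp2 (0.85) and Arr3 (1.09) were higher. The difference between the time courses of the PBS and TNF retinas was not tested here.

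**Figure D5:**
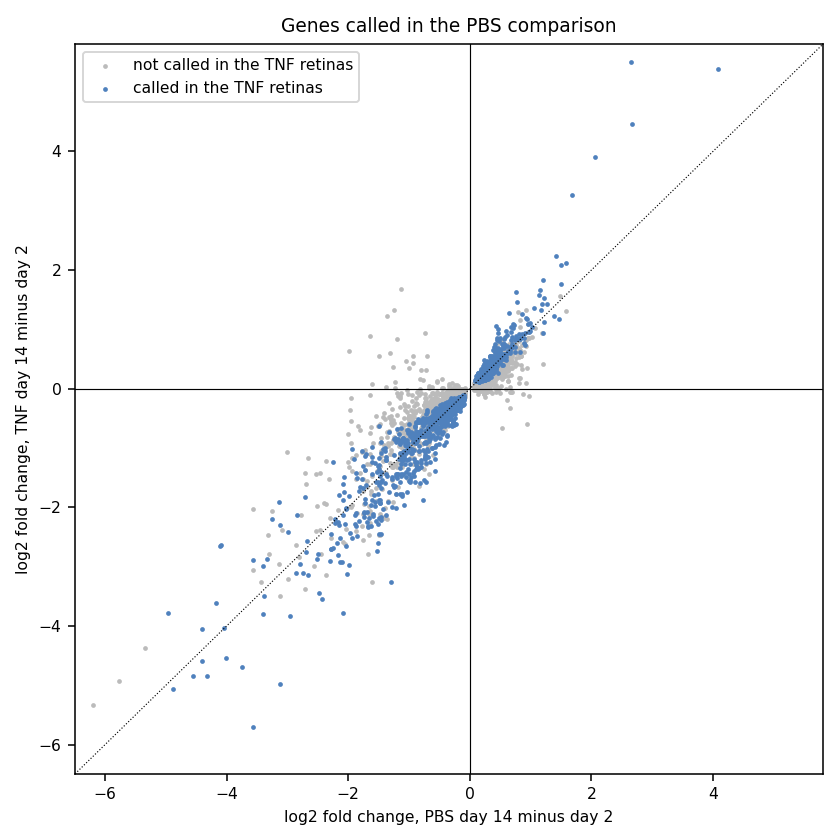
Log2 fold change, day 14 minus day 2, of the 3565 genes called in PBS retinas and tested in TNF retinas, PBS on the horizontal and TNF on the vertical axis, blue where called in TNF retinas (1253 with either sign) and grey where not, with a dotted line of equal values. Most points lie in the lower left and upper right of the plot, and the PBS and TNF retinas share mice.

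The 6 PBS retinas of day 35 show later levels and were compared with the same 31 day 2 retinas, so their calls are not independent of those above. At day 35, 5941 of 19243 genes were called, 3404 lower (17.7%) and 2537 higher (13.2%). Serpina3n averaged 9.47 ± 5.85 CPM (SD, n = 6), Gfap 14.98 ± 2.59 CPM, Edn2 3.59 ± 1.39 CPM, C1qc 3.16 ± 0.172 CPM and Stat3 72.1 ± 4.398 CPM, each below its day 14 mean. Glul (2440.5 ± 105 CPM) and Rlbp1 (295 ± 9.94 CPM) stood close to their day 14 means of 2458 and 298 CPM. Asrgl1 (114 ± 10.9 CPM) and Col19a1 (10.7 ± 3.36 CPM) stood nearer to their day 2 than to their day 14 means. Of the chaperone list, 13 of 20 were higher at day 35 than at day 2 and 0 lower, against 0 higher and 9 lower at day 14, with Xbp1 at 89.4 ± 31.2 CPM on day 35. The day 35 retinas fell apart in this list. Its sum was 5658, 5293 and 5915 CPM in replicates 1 to 3, from males, and 3660, 3717 and 3652 CPM in replicates 4 to 6, from females, against a day 2 median of 3766 CPM. Xbp1 was at 116, 102 and 132 CPM in the first 3 and at 61.1, 62.4 and 63.4 CPM in the others. The males also had lower mouse numbers than the females, so sex and mouse cohort cannot be told apart here. No test of day 35 against day 14 was made.

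Whether the time difference depended on sex was tested with an interaction term. No gene passed the FDR in limma (0 of 19153), while 419 genes had an unadjusted p below 0.05. Female retinas alone gave 499 called genes and male retinas alone 978, from 3 against 15 and 4 against 16 retinas.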

How the data were processed

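RNA sequencing of whole retinas was analysed from the gene counts that the authors deposited, 1 column per retina. Per the labels and the study's methods, polyA RNA libraries were sequenced in pairs, read pairs were mapped by the authors with STAR 2.7.9a (build mm10) and counted per gene with featureCounts (Subread 2.0.1). The annotation release and the strand setting are not given in the sources used here, so overlapping and antisense genes, and near-identical copies such as the H2, C4 and Serpina3 genes, are uncertain. Of 37315 genes, 35533 were given a symbol from GENCODE M21 and 5937 were at 0 in all retinas of the analysis. Sequences are RefSeq promoter windows of GRCm38.p6.

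Genes were kept by filterByExpr of edgeR 4.0.16 (minimum count 10, minimum total 15), scaled by TMM, and fitted with limma 3.58.1 voom in R 4.3.3 with terms for day and sex. Genes with a Benjamini-Hochberg FDR below 0.05 were called, and every FDR in the text is from limma unless another tool is named. The authors' own model blocked on mouse. Here the days come from different mice and only 1 mouse gave 2 of the 38 retinas, so that block could not be estimated. TNF retinas (6 against 8) and PBS retinas of day 35 against day 2 (6 against 31) were fitted in the same way. Levels (CPM) are counts scaled to the library total. Alternatives were the edgeR quasi-likelihood test, DESeq2 1.42.0, other scalings and filters, no sex term, each sex alone, joint fits, each day 14 retina left out, and subsets of the day 2 retinas. The members and the 41 gene lists (660 of 665 entries matched) were chosen with earlier results of these data known, and lists share members. Named genes are, at a mean of 1 CPM or more, the 8 largest changes and the 5 smallest FDR values in each direction, up to 4 called members of each list with the smallest FDR (or the smallest p where none was called), and 7 injury genes (Gfap, Edn2, Fgf2, Stat3, Lcn2, Serpina3n, Cebpd). A few genes that this rule names are not reported here. Other genes are named as exceptions in a list or as picked out after their values were seen. The procedure was tested on simulated data with 18980 genes. It recovered 97% of 100 genes changed 2-fold and 93% of 100 changed 1.5-fold, with 8 unchanged genes called. The changed genes were drawn only from genes above a minimum mean count, and no mouse or cohort effect was simulated. The recovery therefore does not cover genes with few counts or differences between cohorts of mice. Retinas are replicates by their labels, and p-values measure the spread between these retinas. No pair of libraries of 1 day agreed within counting noise (chi-square per gene of at least 9.01).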

Additional observations from a re-analysis of the deposited data

Results flagged for a closer look

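Of 151 named genes, 15 had a day 14 retina whose level lay far from the other 6, by the gap to its nearest neighbour relative to the whole range. Chance flags about 1 in 20 groups. Replicate 7 was the high one for Muc4 (19.6 CPM), Asprv1 (11.1 CPM), Cxcr2 (0.109 CPM) and Cngb1 (652 CPM). Replicate 1 was the high one for Csf1 (11.2 CPM), C4b (66.8 CPM), Vwf (25.4 CPM) and Mmp8 (0.0274 CPM, with 0 in the others). Replicate 5 was high for Fgf2 (15.3 CPM) and low for Tm4sf1 (1.498 CPM), Hlf (298 CPM) and mt-Nd5 (3907 CPM). Replicate 2 was high for Tgm1 (11.7 CPM) and Cd68 (3.49 CPM), and replicate 4 for Dusp1 (26.7 CPM).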

How the results depend on the processing

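The count of 3635 called genes in the PBS comparison became 3734 with edgeR, 3903 with DESeq2, 3576 with DESeq2 size factors, 3543 with library totals, 3511 at 1 CPM or more, 3534 without a filter and 3565 without the sex term, and 5091 with sample quality weights. Leaving out each day 14 retina in turn gave 2635 to 3216, and leaving out both retinas of the mouse that gave 2 gave 2604. Subsets of the retinas gave 499 calls in females, 978 in males, 1583 with the 8 day 2 retinas whose other eye received TNF, 707 with the 4 number-matched day 2 retinas and 902 with 3 of these (added after the data were seen). They change the cohort, sex or other eye along with the number of retinas, and the cause was not tested. With the 4, Pcp2 was at -0.0290 and Ddit4 at -0.0223, reversed from 0.25 and 0.15, and with the 3, Ddit4 was at -0.00105 and mt-Nd5 at -0.0182. Over 3910 values of named genes under these alternatives, 3476 kept their direction and their side of the threshold, 427 lost the call, 3 gained one and 4 reversed. A joint fit with the TNF retinas and mouse as a random replicate block (correlation in mice 0.0619) gave 3568 calls, and the pairing of eyes changed the count by less than 1.5 times. The block on the 38 retinas alone was not run, because only 1 mouse gave 2 of them. For TNF retinas (1655 calls) the count ran from 702 to 2906 with 1 retina left out, and was 1866 with edgeR, 1671 at 1 CPM or more and 1934 without the sex term. For day 35 (5941) it was 6102, 5693 and 5921. In these settings of the PBS comparison, the log2 fold change of Serpina3n lay between -3.96 and -3.34, of Lcn2 between -4.49 and -3.62, of Stat3 between -1.13 and -0.74 and of Gfap between -1.55 and -0.85, all called. Depth limits the genes with few counts at day 14: the day 14 retinas held 5 counts of Cxcr2 and of Saa3 and 1 of Mmp8.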

Other observations

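Calls varied with the exon length of the genes. Of the 6277 shortest genes tested, 7.81% were lower and 4.84% higher at day 14, of the 6272 of middle length 12.8% and 8.48%, and of the 6271 longest 9.25% and 14.3%. The median log2 fold change in these 3 sets was 0.01, 0.00 and 0.03. Mitochondrial transcripts took 3.07% to 3.69% of the counts at day 14 and 2.78% to 4.07% at day 2. The 10 most abundant genes of each library took 8.66% to 9.42% at day 14 and 7.14% to 9.21% at day 2.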
